A study of Pinus pinaster with 66 samples.

Results

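The oldest needles collected from adult maritime pine, Pinus pinaster, those of Whorl 3, were compared with the needles of Whorl 2, which had grown a year later. Every array of the 2 whorls was taken, apart from the array of November Whorl 2 replicate 2, which the study also left out as an outlier. This gave 35 of the 66 arrays of the series, 18 of Whorl 3 and 17 of Whorl 2. Of the 8208 spots on the array, 7296 had a value in every group of these whorls and on at least 0.5 of all arrays used, and were tested.

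Needles were harvested in January, March, May, July, September and November of a single year from untreated trees that were 20 to 25 years old and stood at 1245 m in the field. Whorl 3 had grown in 2009, Whorl 2 in 2010 and Whorl 1, the next younger set, in 2011. The years are those of the sampling protocol, since the whorl field of the labels carries the harvest year beside every whorl. At each harvest the RNA of 6 trees was pooled 2 by 2 into 3 replicates, and the trees were the same throughout, so the spread between replicates is that of 3 pools at 1 site and the months are repeated harvests of the same trees. Cy3-labelled RNA of each sample was hybridised on a cDNA array against a common pool from January, labelled with Cy5, and the values are normalized log ratios. Neither the base of the logarithm nor its direction is stated in the sources used here. The values were taken as log2 ratios, and a higher value was read as more transcript. The genes listed by the study carry their signs in that direction. Those signs were computed from the same arrays, so they show how the study read its values and do not test the direction. The January pool cancels in a difference between whorls.

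Pine needles stay on the tree for several years, so that a branch carries annual whorls of needles of increasing age. Older needles go on assimilating carbon and store reserves, and nutrients are withdrawn from them before they are shed. Needles also make flavonoids, phenolic compounds that screen ultraviolet light, and terpenoids, which include the diterpene acids of resin and carotenoids, and share their precursor with the phytol chain of chlorophyll.

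The Whorl 2 and 3 arrays each gave a ratio at 6519 to 8035 spots (median 7665). How precise a group mean is depends on its 3 arrays, or 2 in November Whorl 2. Arrays of Whorls 3 and 2 from the same month had a mean correlation across spots between 0.586 in January and 0.847 in May. The deposited table pairs no spot with a gene, so that 39 spots are named by the descriptions of the study and all others by their array position. No described spot marks a needle cell type, so the tissue was not checked against markers. In whole needles, fewer cells of a type and less RNA per cell cannot be told apart.

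Taken month by month, nearly all calls between the whorls fell in January and March. In January, 64 spots were higher and 146 lower in Whorl 3 (limma with Benjamini-Hochberg adjusted p under 0.05, two-sided), which is 0.877% and 2.00% of the spots tested and 2.88% together. In March, 171 were higher (2.34%) and 197 lower (2.70%), together 5.04%. September had 2 higher and 2 lower, or 0.0548%. May, July and November had 0 spots by limma, with smallest adjusted p of 0.219, 0.0532 and 0.388. In these months 240, 508 and 177 spots had an unadjusted p under 0.05. If no spot differed, a share of 0.05 of the spots tested would be expected to have one. May and November did not reach that share, nor did September with 215. When the whorls were paired by replicate number within each month, 243 spots were higher and 285 lower in January (7.24%), 330 and 336 in March (9.13%), 1 and 6 in May (0.0959%) and 19 and 7 in July (0.357%). The paired fit called 4 spots in September (0.0549%) and 0 in November, where 345 had an unadjusted p under 0.05, again less than a share of 0.05. In that fit 399 had one in May and 367 in September, which just reached this share.

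**Figure D1:**
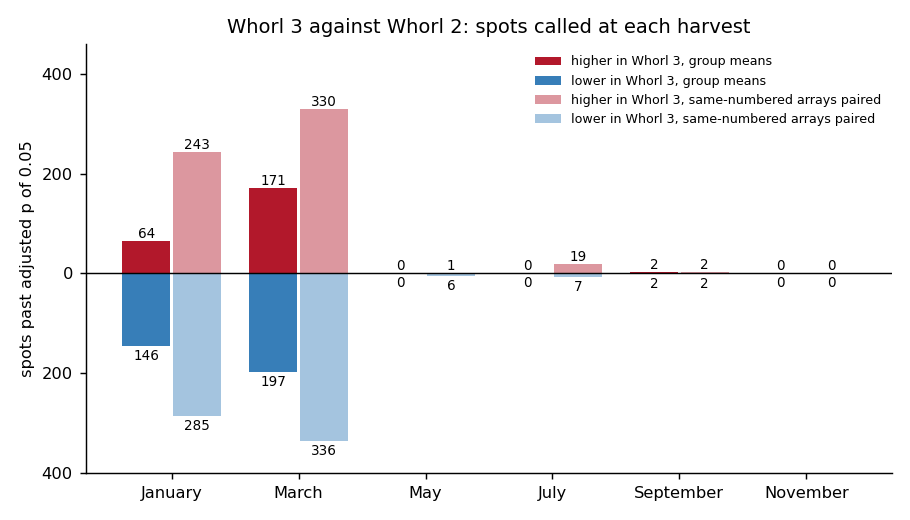
Number of spots higher (red, upward) and lower (blue, downward) in Whorl 3 than in Whorl 2 at each harvest, for adjusted p under 0.05. Dark bars compare group means and light bars pair arrays of the same replicate number. January and March hold 210 and 368 calls in the first fit, against 4 or fewer in each other month.

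In both months the number of calls depended on the replicates. Without replicate 1, 2 or 3 of every group, January had 91, 33 and 88 calls and March had 77, 32 and 297. With only the arrays of the month to estimate the spread, 118 spots were called in January and 192 in March, of which 58 and 88 were among those above. In this setting 46 were higher and 72 lower in January. March had 144 higher and 48 lower, so its balance between directions was not that of the main fit. Differences within a month were more alike between replicates in January than elsewhere. The 3 same-numbered differences of January had a mean correlation across spots of 0.472, those of March 0.331 and those of July 0.282, while those of May and September had 0.0698 and 0.105. The typical size of the difference followed the calls, with a median absolute difference over all tested spots of 0.08 in January and 0.09 in March and of 0.05 to 0.06 in the other months, on the log2 scale. The spread between replicates did not set January apart, where the median SD of a spot was 0.0776 in Whorl 2 and 0.0699 in Whorl 3. In March it was 0.0941 in Whorl 2 and 0.0548 in Whorl 3. It lay between 0.0548 and 0.102 in the groups of all months, so March Whorl 3 had the lowest.

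The pattern of differences was most alike between January and March and among July, September and November, while May resembled neither. Across the 7296 spots, the difference of January correlated with that of March at r = 0.43. July, September and November correlated with each other at 0.36, 0.34 and 0.40. The other 11 pairs of months had r between -0.06 and 0.17. The likeness of January and March was not seen in every replicate. The differences of March replicates 1 and 2 correlated with those of the January replicates at 0.290 to 0.460, and that of March replicate 3 at -0.0670 to 0.141. These months share no array of Whorl 2 or 3, but spots are not independent replicates, so no p is given.

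**Figure D2:**
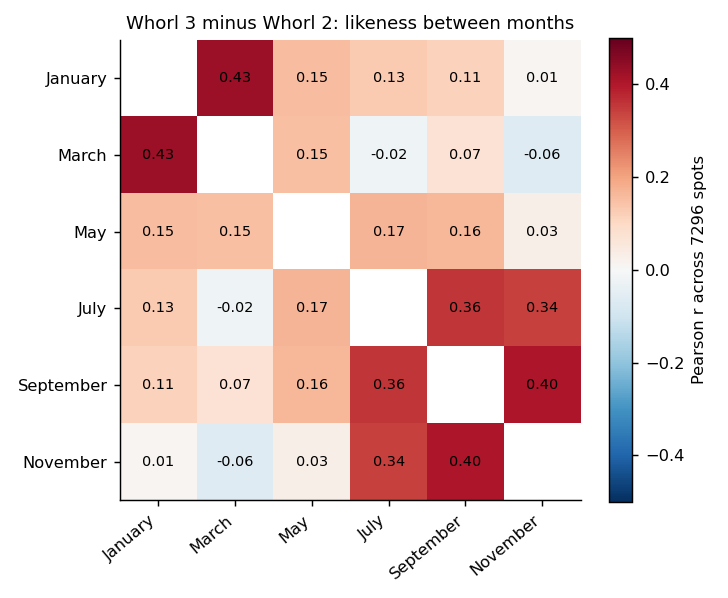
Pearson correlation, across 7296 spots, of the Whorl 3 minus Whorl 2 difference between each pair of months (red positive, blue negative). January and March resemble each other (0.43), and so do July, September and November (0.34 to 0.40).

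Of the spots called in January and in March, 62 were called in both. This is 29.5% of the January spots, against 5.04% of all spots called in March. It is 16.8% of the March spots, against 2.88% of all spots called in January. Of the 62, 23 were higher in both, 38 were lower in both and 1 had opposite signs, while 63.5% of all spots had the same sign in both months. Both months use 1 estimate of the spread of each spot, so the 2 sets of calls are not independent. The 64 spots higher in January had a median difference of 0.42 in that month and of 0.24 in March, and medians of 0.02 to 0.04 from May to November. The 146 lower spots had medians of -0.37 in January, -0.16 in March and -0.02 to 0.02 afterwards. The spots called in March behaved likewise, with medians of 0.31 and -0.34 in March, 0.13 and -0.15 in January, and -0.02 to 0.04 in the later months. In the median, Whorls 2 and 3 thus lay close together at these spots from May to November.

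In the January spots that were lower in Whorl 3, the median of Whorl 2 stood apart from those of Whorls 1 and 3. The median log2 ratio was 0.32 in Whorl 2, against -0.05 in Whorl 3 and -0.07 in Whorl 1. Whorl 1 lay nearer to Whorl 3 than to Whorl 2 in 128 of these 146 spots (87.7%), compared with 54.4% of all spots in January. The share was 37.5% in the spots higher in January, and in March 60.4% in the lower and 22.2% in the higher spots, against 46.1% of all spots. In the spots higher in January the medians were -0.18 in Whorl 2, 0.18 in Whorl 3 and 0.00 in Whorl 1. In March the lower spots had 0.34 in Whorl 2, -0.02 in Whorl 3 and 0.12 in Whorl 1, and the higher spots had -0.11, 0.17 and -0.04. The spots were chosen on the same Whorl 2 and Whorl 3 arrays, so these levels are a description.

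The spot with the largest fall in January was Q1F11, which has no description. In January its log2 ratios were 2.43, 1.22 and 1.33 in Whorl 2 and -0.24, -0.17 and 0.20 in Whorl 3. In March they were 1.50, 1.76 and 0.62 in Whorl 2 and 0.24, 0.25 and 0.47 in Whorl 3. All Whorl 2 arrays were above all Whorl 3 arrays in both months, and Whorl 1, with -0.33, -0.45 and -0.27 in January and 0.46, 0.04 and 0.38 in March, also stayed below Whorl 2. The difference was -1.73 ± 0.19 (SE) in January, with a limma adjusted p of 3.87e-08, and -0.97 ± 0.19 in March, with 0.00106. From May to November the monthly differences lay between -0.05 and 0.15, and the difference between months passed the test (moderated F, limma adjusted p = 5.97e-06).

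Q2H15, another spot without description, had the largest rise in January. Whorl 3 read 1.21, 0.85 and 0.89 in that month, while Whorl 2 read 0.11, -0.11 and 0.24 and Whorl 1 read 0.09, 0.16 and 0.11. Here Whorl 3 stood apart from both younger whorls. The difference of 0.90 ± 0.13 (SE) had a limma adjusted p of 5.12e-05. In March it was 0.18, with an adjusted p of 0.53, and in later months it lay between -0.13 and 0.08. The test between months gave an adjusted p of 0.0129. The mean of 6 months, 0.18, passed the test with paired numbers (adjusted p = 0.00506) and not without (0.0716).

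**Figure D3:**
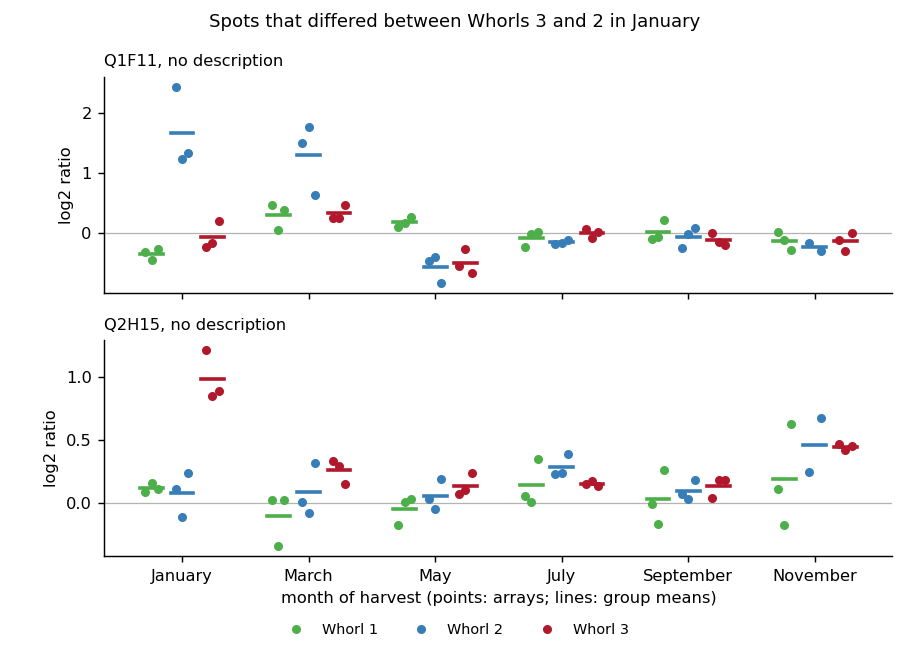
Log2 ratio of each array (points) and group means (lines) for Q1F11 and Q2H15 by month of harvest, in Whorl 1 (green), Whorl 2 (blue) and Whorl 3 (red). Q1F11 was high only in Whorl 2 of January and March, and Q2H15 reached 0.85 to 1.21 in Whorl 3 of January.

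Over all spots, 45 (0.617%) differed between months in their Whorl 3 minus Whorl 2 difference by the moderated F test, and 213 (2.93%) did with paired replicate numbers. The month farthest from the median of the months was March in 26 of the 45, January in 16, September in 2 and July in 1. The same count was not made over all spots. January and March also had the widest differences over all spots, with an SD of 0.168 and 0.166 against 0.106 to 0.125 in the other months. The seasons of the study, May, July and September against January, March and November, separated only 11 spots (0.151%), 7 with a greater and 4 with a lower difference in the warm months, and 63 (0.868%) with paired numbers.

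As the mean of the 6 months, 131 spots were higher (1.80% of those tested) and 67 lower (0.918%) in Whorl 3, together 2.71%. The test of this mean takes arrays of different months as independent, while the trees did not change between months. With paired numbers 344 (4.74%) and 208 (2.86%) were called, together 7.60%, and these held all of the 198. The split between directions depended on the normalization, since quantile normalization gave 125 higher and 121 lower. Scaling the arrays to 1 spread gave 133 higher and 78 lower. The split also depended on the left-out November array, with which the counts were 89 and 77. The differences were small. Only 32 of the 198 called spots exceeded 0.3 in size and their median size was 0.18 on the log2 scale. Of the 198, 132 (66.7%) had the same sign in all 6 months. A high share follows from choosing spots on their mean over these months, and it was 8.66% over all tested spots. Neither January nor March had called 122 of the 198. January and March nevertheless carried much of the mean. Without January 59 spots were called, without March 93 and without both 32. Without replicate 1, 2 or 3 the counts were 14, 22 and 401.

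Among the described spots, 1 passed the test for the mean. Q10C3, described as geranylgeranyl diphosphate synthase, which makes the common precursor of diterpenes, carotenoids and the phytol chain of chlorophyll, fell by 0.28 ± 0.07 (SE) on the log2 scale in Whorl 3 (limma adjusted p = 0.0252, and 0.00427 with paired numbers). In January it read -0.42, -0.28 and -0.28 in Whorl 2 and -0.74, -0.55 and -0.48 in Whorl 3. In May it read 0.70, 0.35 and 0.02 against -0.26, -0.42 and -0.34, and in November -0.34 and -0.28 against -0.60, -0.76 and -0.49. In these 3 months every Whorl 3 array lay below every Whorl 2 array. The groups overlapped in March, at -0.25, 0.03 and -0.44 against -0.22, -0.29 and -0.19, in July, at -0.67, -0.34 and -0.41 against -0.75, -0.60 and -0.53, and in September, at -0.21, 0.36 and 0.61 against -0.37, 0.19 and 0.19. The mean of Whorl 3 was lower in 6 of 6 months, by between 0.01 in March and 0.70 in May. The difference of May alone had an adjusted p of 0.412 by limma and 0.0406 with paired numbers. The call for the mean was lost without replicate 1 (adjusted p = 0.0676), without replicate 2 (0.477), without January (0.0743) and without May (0.202), and the difference then lay between -0.28 and -0.20.

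The other enzyme of isoprenoid synthesis, Q19M11, described as 3-hydroxy-3-methylglutaryl synthase and placed at the entry of the cytosolic route, did not pass the test, at -0.04 ± 0.06 (SE).

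Of the spots without description, Q20H3 and Q15L24 differed in the same direction at every harvest. Q20H3 was higher in Whorl 3 by 0.48 ± 0.10 (SE, limma adjusted p = 0.00412). Its highest levels were those of November, where Whorl 3 read 1.74, 2.05 and 1.69, Whorl 2 read 1.07 and 0.97 and Whorl 1 read 0.67, 0.53 and 0.75, without overlap between neighbours in age. In July it read 0.27, -0.43 and -0.30 in Whorl 3 and -0.59, -0.99 and -0.83 in Whorl 2, again without overlap. In January the whorls overlapped, with 0.57, -0.20 and -0.07 in Whorl 3 and 0.28, -0.83 and -0.63 in Whorl 2, and replicate 1 was the highest of both. The monthly differences lay between 0.18 and 0.81.

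Q15L24 was lower in Whorl 3 by 0.44 on the log2 scale (difference -0.44 ± 0.09, SE, limma adjusted p = 0.00412). In July Whorl 3 read -1.54, -1.49 and -1.40 against -0.95, -0.96 and -0.41 in Whorl 2. In May it read -2.07, -2.01 and -1.83 against -1.43, -1.32 and -1.74, and in November -1.51, -1.42 and -1.45 against -1.24 and -0.70. In these 3 months the groups did not overlap. In September they did, with -0.30, -1.03 and -0.34 in Whorl 3 and 0.07, -0.62 and -0.01 in Whorl 2, and replicate 2 was the lowest of both whorls. Across all harvests its Whorl 3 level ran from -2.07 to -0.30 with a median of -1.41, and that of Whorl 2 from -1.74 to 0.07 with a median of -0.91. In the paired fit the July difference of -0.70 was called (limma adjusted p = 0.0121, and 0.374 unpaired). The call for the mean was lost without replicate 1 (adjusted p = 0.0767), and that of Q20H3 without replicate 2 (0.0759).

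**Figure D4:**
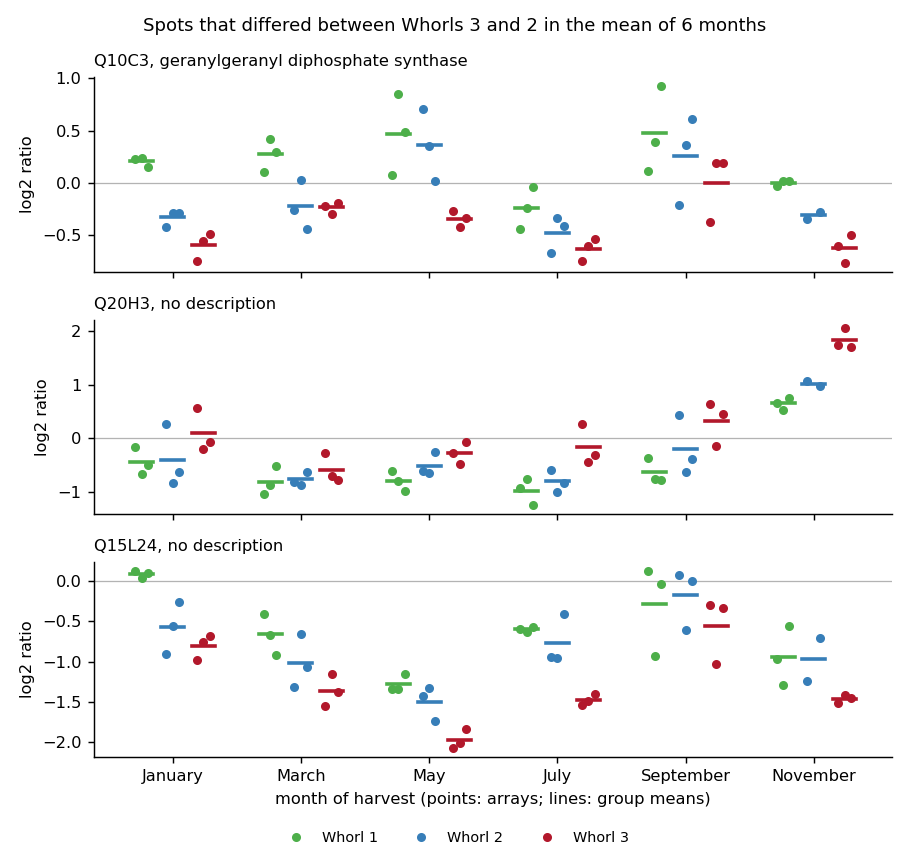
Log2 ratio of each array (points) and group means (lines) for Q10C3, Q20H3 and Q15L24 by month, in Whorl 1 (green), Whorl 2 (blue) and Whorl 3 (red). The Whorl 3 mean lies below that of Whorl 2 in all 6 months for Q10C3 and Q15L24, and above it in all 6 months for Q20H3.

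The genes that the study lists as most correlated with needle age included a single call between Whorls 3 and 2. They comprise the flavonoid enzymes, 4 spots listed beside them and Q10C3, and were chosen by the study on these arrays, so that their direction is not independent evidence. Of the 10 spots, 9 were tested. In the mean of Whorl 3 minus Whorl 2, 1 of the 9 was lower (Q10C3), against 0.918% of all spots, and none higher, with a median of -0.06 against 0.00 over all spots. In the preceding step, Whorl 2 minus Whorl 1, 101 of all spots passed the test (1.39%), 73 of them lower (1.00%), and 8 of the 9 were lower, with a median of -0.35. With paired numbers 234 spots passed (3.23%), 158 of them lower (2.18%), and all 9 were lower. All 9 values were negative at both steps. The mean of the earlier step was carried mainly by January and March. The monthly differences of the 9 spots ran from -1.43 to -0.53 in January and from -0.90 to -0.41 in March, but from -0.30 to -0.04 in May, -0.23 to 0.05 in July, -0.22 to 0.10 in September and -0.31 to 0.03 in November. They were not tested month by month. The test of the difference between the steps, which called 6 spots in all (0.0825%) and 103 with paired numbers (1.43%), called none of the 9 with or without pairing. Their differences between the steps ran from 0.04 for Q10C3 to 0.41 for Q18F13, and the smallest adjusted p was 0.311, or 0.0876 with paired numbers. Both steps share the Whorl 2 arrays.

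Chalcone synthase, the entry enzyme of flavonoid synthesis, was measured by Q15M17 and Q18F13. Q18F13 was lower by 0.46 in Whorl 2 than in Whorl 1 (difference -0.46 ± 0.09, SE, limma adjusted p = 0.00233) and differed by -0.04 ± 0.09 between Whorls 3 and 2 (adjusted p = 0.862). The earlier step of Q18F13 was -1.38 in January and -0.90 in March, but 0.05 in July and -0.04 in September. Its range over the harvests was -1.16 to 0.20 in Whorl 2, with a median of -0.64, and -1.12 to 0.08 in Whorl 3, also with a median of -0.64. Q15M17 had -0.25 ± 0.06 (adjusted p = 0.0342) and -0.08 ± 0.06 (0.591) at the earlier and later step. Flavanone 3-hydroxylase, Q15G15, which makes dihydroflavonols, had -0.41 ± 0.09 (0.0046) and -0.06 ± 0.09 (0.80).

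Chalcone isomerase, Q15K3, which closes the flavanone ring, had the largest later step of these enzymes, -0.20 ± 0.11 (SE, limma adjusted p = 0.402), and was lower in Whorl 3 in 6 of 6 months. Its earlier step of -0.35 ± 0.11 had an adjusted p of 0.142, and of 0.00557 with paired numbers. The flavonoid-3',5'-hydroxylase Q21C21, which sets the hydroxyl pattern of the ring, had no Whorl 3 value in May and was not tested. In January it read -1.69, -1.89 and -1.11 in Whorl 3 and -1.32, -1.23 and -0.85 in Whorl 2, and in March -1.54, -1.25 and -1.28 against -0.51 and -0.41, without overlap in March. In November its mean was -1.42 in Whorl 3 and -0.87 in Whorl 2. In July and September Whorl 3 was the higher, with 1 array at -1.13 against a mean of -1.19, and with means of 0.54 against 0.34.

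For the mean of the earlier step, the 4 spots listed beside the flavonoid enzymes were all lower, again with their largest differences in January and March and with a positive value in at least 1 later month each. The armadillo beta-catenin repeat protein Q17L11 had -0.41 ± 0.07 (SE, limma adjusted p = 0.000691) and the 40S ribosomal protein Q17O7, a part of the small ribosomal subunit, -0.46 ± 0.08 (0.00119). The COP9 complex spot Q13K2, whose complex regulates protein degradation and light responses in plants, had -0.29 ± 0.06 (0.00673), and the protein-binding protein Q16H14 -0.24 ± 0.06 (0.0225). At the later step these 4 lay between -0.06 and -0.01 and none was called.

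In November the 4 tested flavonoid enzymes had differences between -0.44 and -0.37, none of which passed the test. Only 2 Whorl 2 arrays were left in that month and they disagreed. Replicate 3 read 0.42 for Q15M17, 0.12 for Q18F13, 0.27 for Q15K3 and 0.31 for Q15G15, above every Whorl 3 array. Replicate 1 read -0.50, -0.99, -1.16 and -0.84, while Whorl 3 ran from -0.48 to -0.38 for Q15M17, -0.93 to -0.61 for Q18F13, -1.11 to -0.62 for Q15K3 and -0.85 to -0.44 for Q15G15. The November values of these enzymes thus rest on 1 array.

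**Figure D5:**
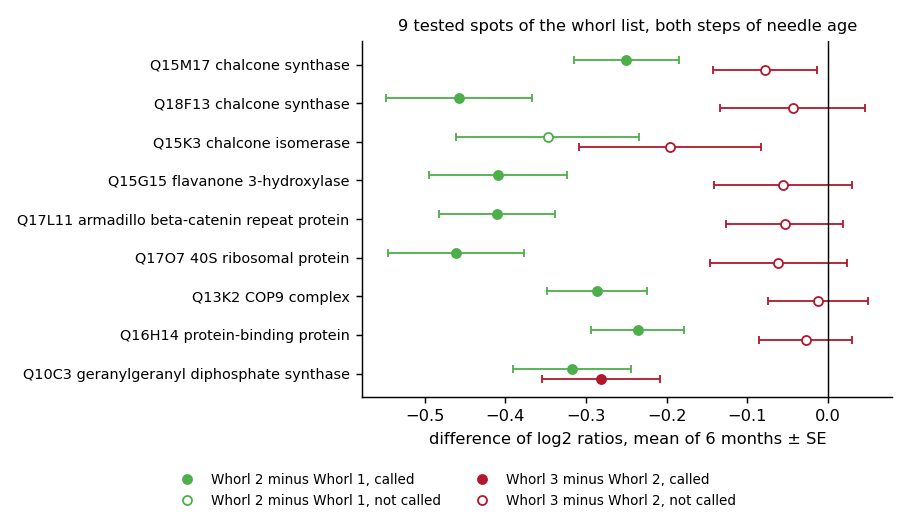
Difference of log2 ratios, mean of 6 months with SE bars, for the 9 tested spots of the list correlated with needle age. Green marks Whorl 2 minus Whorl 1, red marks Whorl 3 minus Whorl 2, and filled points passed the test. At the earlier step 8 of 9 passed and at the later step only Q10C3 did.

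The other described spots were grouped by role, and none of them passed the test for the mean or in any single month. All 38 tested spots that the study names had a median mean difference of -0.01, and their values ran from -0.28 to 0.15. In the lists that the study drew up for temperature and rain, 0 of 10 tested spots each passed for the mean, with medians of 0.04 and 0.01, and in the list it chose for RT-qPCR 0 of 6 tested, with a median of -0.04. With 2.71% of all spots called, lists of this size would hold less than 1 call at that share, so these counts of 0 say nothing particular about them. The study chose these lists on the same arrays. Of the transcription factors, the MYB proteins, several of which regulate phenylpropanoid genes in plants, lay within 0.04 of 0 (Q7N23 Myb5, 0.01; Q11F13, 0.00; Q16P17, -0.04). The CRK1 protein, Q7F2, had -0.06 ± 0.03 (SE, limma adjusted p = 0.281). Its Whorl 3 mean was lower in 4 of 6 months, and in 3 months every Whorl 3 array lay below every Whorl 2 array. Its highest monthly difference, 0.13, was that of September, from 1 value in each whorl. Without September Q7F2 was called (-0.09, limma adjusted p = 0.0413).

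Elongation factor 1-alpha, Q11E4, which delivers charged tRNA during translation, had 0.11 ± 0.07 (SE), with 0.30 in January and 0.28 in March. Initiation factor 4A, Q2A8, an RNA helicase, had 0.08 ± 0.05. Endoplasmin precursor, Q14J11, a chaperone of the endoplasmic reticulum, was higher in the mean of Whorl 3 in 6 of 6 months, at 0.12 ± 0.05 (limma adjusted p = 0.215, and 0.0597 with paired numbers). HSP70, Q17J7, another chaperone, had 0.03 ± 0.07.

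In carbon metabolism and transport, alcohol dehydrogenase Q17K21, which reduces acetaldehyde to ethanol in fermentation, had 0.15 ± 0.05 (SE, limma adjusted p = 0.130), with positive values in 6 of 6 months, and was called with paired numbers (adjusted p = 0.0481) or without replicate 3 (0.0401). The mitochondrial dicarboxylate carriers Q11D3 and Q12A19 had -0.05 ± 0.05 and -0.08 ± 0.04, the hexose transporter Q13B15 -0.02 ± 0.03 and triose-phosphate isomerase Q7G9, an enzyme of glycolysis, -0.05 ± 0.05. Of the cell wall enzymes, UDP-arabinose mutase Q6B3 and the pectin methylesterase-like protein Q17N23 had 0.05 each, with positive values in 6 of 6 months.

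Among proteases, the aspartic proteinase nepenthesin I spot Q16J12 had -0.12 ± 0.05 (SE, limma adjusted p = 0.198), with lower means in Whorl 3 in 6 of 6 months and no overlap in 3. It passed the test without replicate 3 (-0.21, 0.0464). The cold acclimation protein Q12L10 had 0.08 ± 0.04, positive in 6 of 6 months. Ketol-acid reductoisomerase Q17J10, of branched-chain amino acid synthesis, and methylenetetrahydrofolate dehydrogenase Q10D23, of one-carbon metabolism, had -0.01 ± 0.04 and -0.06 ± 0.06. The auxin-responsive spots Q5C1 and Q1J15 had 0.04 and -0.01. Both had their highest difference in March, at 0.40 and 0.21, with limma adjusted p of 0.217 and 0.305. The clathrin light chain spot Q22K3, of vesicle coats, had 0.09 ± 0.05, aminoalcoholphosphotransferase 1, Q15E22, of phospholipid synthesis, -0.01 ± 0.04, and Q3A4, without description, 0.02 ± 0.02.

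Pairing the replicate numbers brought out 3 further named spots in March. The fatty acid or sphingolipid desaturase Q11J18, which introduces double bonds into membrane lipids, had -0.41 (limma adjusted p = 0.152, and 0.0322 paired). The 3'-5'-exonuclease domain protein Q16E20 had -0.23 (0.0620, and 0.0350 paired), and Q1K1, listed as an unknown protein, had 0.36 (0.131, and 0.00988 paired). Q2I24, without description, had 0.11 ± 0.04 (SE, adjusted p = 0.191) for the mean, was called when paired (0.00909) or without replicate 3 (0.0212), and was positive in 6 of 6 months.

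Besides Q21C21, 4 spots that the study names had months without a value in Whorl 2 or 3 and were not tested. They are the AP2/ERF domain protein Q11C18, a transcription factor family of stress responses, the subtilase Q14O21, a serine protease, serine hydroxymethyltransferase Q1E13, and Q13C16, which has no description. Their monthly differences, where both whorls had a value, ran from -0.15 to 0.44 for Q11C18, -0.22 to 0.33 for Q14O21, -0.25 to 0.55 for Q1E13 and -0.64 to 0.58 for Q13C16. In January Q14O21 read -0.36, -0.21 and -0.36 in Whorl 3 and -0.05 and -0.16 in Whorl 2.

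Several of the largest differences rested on a single array. Q1O9 had the largest fall for the mean, -0.58 ± 0.05 (SE, limma adjusted p = 3.94e-07), and the smallest p of the test between months. In September it had 1 value in each whorl, 3.12 in Whorl 2 and -0.13 in Whorl 3, a difference of -3.25. Its other Whorl 2 values ran from -0.11 to 0.35, and without September the difference was -0.04 (adjusted p = 0.777). Q5H18 had the largest fall in March, -1.64 ± 0.17 (adjusted p = 1.31e-08), from a single Whorl 2 value of 1.51 against -0.11, -0.09 and -0.18 in Whorl 3. Q2A1 had the largest rise in March, 0.87 ± 0.19 (0.00437). Its Whorl 3 values were 1.72, -0.05 and 0.03 and those of Whorl 2 -0.37, -0.30 and -0.22, so that without replicate 1 the difference was 0.25 (0.207). Q16J8 had the largest rise in September, 0.87 ± 0.16 (0.0082), with 0.35, 0.40 and 0.35 in Whorl 3 against a single Whorl 2 value of -0.50. It was not called with paired numbers (0.70, adjusted p = 0.0606), without replicate 2 (0.119) or without replicate 3 (0.162). Of the spots called, 1 of 210 in January, 2 of 368 in March, 2 of 4 in September and 12 of 198 for the mean had a group with 1 value. These are 0.48%, 0.54%, 50% and 6.06% of the calls, against 0.49%, 0.34%, 2.21% and 5.67% of all spots tested. For January and the mean, the share among calls was thus close to that of all spots.

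Q22F7 had the largest rise for the mean, 0.57 ± 0.15 (SE, limma adjusted p = 0.029). Whorl 3 read 0.03, 0.54 and 0.31 in March against -0.68, -0.48 and -0.49 in Whorl 2, without overlap. In January it read -0.20, -0.14 and 0.14 against -0.66, -0.69 and -0.33, also without overlap. The March difference of 0.85 had an adjusted p of 0.0698, and of 0.00174 with paired numbers. From July to November each whorl had at most 2 values in a month. The call for the mean was lost without replicate 2 (adjusted p = 0.158), without January (0.0967), March (0.143), July (0.0799) or November (0.0707), while the difference stayed between 0.50 and 0.59.

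The spots whose names begin with Q22 held a larger share of calls than any other name group. Of the 77 tested, 17 were higher and 1 lower for the mean, or 23.4%, against 0.27% to 5.4% for each of the other 21 name groups. Their median difference was 0.31 in January, 0.21 in July, 0.10 in March, 0.08 in September, 0.06 in May and 0.00 in November. Without the Q22 spots, 112 spots were higher and 63 lower for the mean. The other name groups were not alike either, with median differences for the mean from -0.03 to 0.03. In March, 28 of 278 spots with the number 1 after the Q were higher and 7 lower. With the number 2 these were 34 and 15 of 327, and with the number 10 they were 0 and 21 of 367. Over all spots, 2.34% were higher in March and 2.70% lower. What the number in a spot name stands for is not stated in the sources used here, and the part of array position or printing in this was not tested.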

How the data were processed

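The authors hybridised Cy3-labelled amplified RNA of needles with a Cy5-labelled January pool on a cDNA array, and deposited log ratios normalized for a common reference design with the BABAR package. These deposited values were treated as log2 and used as they are; the median of every array is 0, and raw intensities were not analysed here. Fields of the reference channel name several months, but its source name and harvest date give January. Groups of month and whorl were taken from the sample labels. With limma 3.58.1 in R 4.3.3, 1 mean was fitted for each of 22 groups on 65 arrays, with moderated variances shared by all groups. This fit took every array as independent, and any likeness of a pool to itself between months was not modelled. The SE and adjusted p of the mean of 6 months assume that there is none. They may therefore be too small if the Whorl 3 minus Whorl 2 difference of a pool is alike between months. A lasting effect of a pool on both whorls would act the other way. With a replicate block over all months the mean had 255 calls. P-values are two-sided and were adjusted by Benjamini-Hochberg over all spots tested (7296, or 7276 where Whorl 1 entered), at 0.05. The fit of the mean of 6 months was tested on simulated data. The simulated noise was independent between arrays, so the likeness of same-numbered arrays was not covered.

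Replicate numbers were taken to pair the whorls, because the same trees were harvested each time and a legend of the study ties a number to an individual. Deviations from group means correlated at a mean of 0.308 in 17 same-numbered pairs (-0.0480 to 0.737, 14 of them over 0.1). In 34 pairs of different number the mean was -0.154. Deviations within a group sum to 0, so these means are tied to each other. The highest value, 0.737, was of November, where the 2 Whorl 2 arrays mirror each other. The paired fit has 18 blocks of month and number, and links no arrays across months. Its value stands beside a result where it changes the call or moves a count by over 1.5 times.

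Named are the 43 spots that the study names, and, of spots without description, at most 2 with the largest difference in each direction for the mean, 1 for each month, and the smallest p between months. The members, lists and comparisons were chosen with earlier results of these data known. Alternatives covered normalization, filters, arrays, blocks, moderation and leaving out each replicate or month. Figures were drawn with matplotlib.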

Additional observations from a re-analysis of the deposited data

Results flagged for a closer look

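The following results differed between months or between steps of needle age by the test of the difference itself. The Whorl 3 minus Whorl 2 difference depended on the month in 45 spots, among them Q1O9 (adjusted p = 2.73e-12 by limma), Q5H18 (3.26e-07), Q1F11 (5.97e-06) and Q2H15 (0.0129). For Q1O9 and Q5H18 this rests on 1 Whorl 2 array each, at 3.12 and 1.51, while Q1F11 and Q2H15 rest on 3 arrays a group. It differed between warm and cold months in 11 spots, including Q1F11 (0.92 ± 0.16, SE), Q5H18 (0.67 ± 0.11) and Q1O9 (-0.98 ± 0.11). It differed from Whorl 2 minus Whorl 1 in 6 spots, including Q1F11, with 0.34 ± 0.08 (SE) at the earlier step and -0.41 ± 0.08 at the later. No group has 4 or more arrays, so single arrays were not tested as outliers.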

How the results depend on the processing

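Most counts of calls moved with how replicates were modelled. Where a named spot was called in the main fit or in the alternative, its direction did not reverse. For spots called in neither, direction was not compared. Leaving out each replicate in turn gave 33 to 91 calls in January, 32 to 297 in March, 0 in May, 0 to 5 in July, 1 in September, 0 to 4 in November, 14 to 401 for the mean, 5 to 38 between months, 0 to 48 between seasons, 27 to 94 for Whorl 2 minus Whorl 1 and 0 to 154 for the difference between the steps. With the replicate block within month, calls were 528, 666, 7 and 26 from January to July, 552 for the mean, 213 between months, 63 between seasons, 234 for Whorl 2 minus Whorl 1 and 103 between the steps. As a random block these were 475, 643, 5, 21, 495, 245, 68, 221 and 64. A replicate block over all months gave 6 in July and 11 between the steps and stayed within 1.5 times elsewhere.

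Quantile normalization gave 516 in January, 126 between months, 29 between seasons and 11 between the steps; it gave 244 higher and 272 lower in January, and 1 higher and 10 lower between the steps. Scaling the arrays to 1 spread gave 6 in July, between seasons 5 higher and 5 lower, and between the steps 1 higher and 5 lower. Only spots with a value on all 65 arrays gave 133 in January, 178 in March, 2 in July, 0 in September, 21 between months, 6 between seasons and 2 between the steps. Only the arrays of Whorls 2 and 3 gave 2 in September, 2 in November and 9 between months. Keeping the left-out November array gave 20 between seasons. Trend and robust moderation gave 3 in July. Dropping the minimum share of arrays changed no count. The mean had 59 calls without January, 93 without March and 32 without both. Chosen after seeing the data, at least 2 values in every group gave 3 in July, 1 in September and 2 between the steps, and only the arrays of each month gave 118, 192 and 0 in January, March and September. The cause of these shifts was not tested beyond the fewer spots or arrays that a setting holds. Of 984 values of named spots under an alternative, 956 stayed called or stayed not called, 20 lost the call and 8 gained it.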

Other observations

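Chosen after the values were seen, the Whorl 3 minus Whorl 2 difference of each month was set beside the change of Whorl 1 from that harvest to the next, which uses other arrays. Across spots the correlation was -0.31 in January, 0.10 in March, 0.37 in May, 0.38 in July and 0.06 in September. The spots share each array's normalization and are not independent, so no p is given.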
